A study of Mus musculus with 12 samples.

Results

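Messenger RNA of 8 genes of renal water handling, 7 aquaporins and the vasopressin V2 receptor, was followed in whole kidneys of 12 mice. The members were the rows of the deposited expression table named Aqp1, Aqp2, Aqp3, Aqp4, Aqp6, Aqp7, Aqp11 and Avpr2, which are 8 of its 22053 rows. All 8 passed the filter on low values, which asked for at least 1 FPKM in at least 4 mice. FPKM, fragments per kilobase of transcript after scaling to the mapped reads of the library, is a level per transcript length, so levels of different genes can be set side by side.

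All mice were C57BL/6, and each of the 3 groups held 4 of them. Control mice ate control diet from 8 to 16 weeks of age and received weekly intraperitoneal PBS. CKD mice, a model of chronic kidney disease, ate a diet with 0.2% adenine, a purine that injures the tubules, from 8 to 16 weeks of age, and also received weekly PBS. CKD+Fe mice ate the adenine diet over the same weeks and received weekly intraperitoneal iron dextran at 0.5 g/kg in place of PBS. The comparison of CKD with control asks how these genes differ under the diet, and that of CKD+Fe with CKD how they differ when iron is added. The kidney disease here comes from the diet alone, whole kidney was sequenced rather than a zone or a sorted cell type, and 1 library stands for 1 mouse.

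Aquaporins are membrane channels, and most of them carry water along osmotic gradients. AQP1 serves the proximal tubule and thin descending limb, where most filtered water is reabsorbed. In the principal cells of the collecting duct, vasopressin binds the V2 receptor encoded by Avpr2, cAMP rises, AQP2 moves from vesicles to the apical membrane, and water leaves the cell through AQP3 and AQP4 on the basolateral side. AQP6 lies in vesicles of intercalated cells. AQP7 carries water and glycerol in the proximal straight tubule, and AQP11 is a channel of the endoplasmic reticulum of proximal tubule cells whose loss causes polycystic kidneys in mice.

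Promoters are shown for Aqp2, Aqp3 and Avpr2, whose differences between mice are described below, and for Aqp11, which fell most. Each is given as the 250 bases before the RefSeq start, on build GRCm38.p6 and 5′ to 3′ on the strand of the gene. The windows are chr15:99578806-99579055 on the plus strand for Aqp2, chr4:41098184-41098433 on the minus strand for Aqp3, chrX:73891852-73892101 on the plus strand for Avpr2 and chr7:97738248-97738497 on the minus strand for Aqp11. Capitals mark matches on either strand to 4 short motifs: ACGTCA, the half-site of the cAMP response element, AGATAA, bound by GATA factors, TATAA, the core of the TATA box, and TGGAAA, the core of the tonicity-responsive element.
Aqp2: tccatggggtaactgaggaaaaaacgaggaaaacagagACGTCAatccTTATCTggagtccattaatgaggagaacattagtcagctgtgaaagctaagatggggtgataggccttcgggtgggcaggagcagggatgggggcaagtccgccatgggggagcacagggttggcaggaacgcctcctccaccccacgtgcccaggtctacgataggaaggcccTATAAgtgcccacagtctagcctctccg
Aqp3: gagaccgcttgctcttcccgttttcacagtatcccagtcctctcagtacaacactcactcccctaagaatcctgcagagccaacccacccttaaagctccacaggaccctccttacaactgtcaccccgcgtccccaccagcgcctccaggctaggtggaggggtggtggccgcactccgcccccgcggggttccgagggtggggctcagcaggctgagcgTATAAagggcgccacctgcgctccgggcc
Avpr2: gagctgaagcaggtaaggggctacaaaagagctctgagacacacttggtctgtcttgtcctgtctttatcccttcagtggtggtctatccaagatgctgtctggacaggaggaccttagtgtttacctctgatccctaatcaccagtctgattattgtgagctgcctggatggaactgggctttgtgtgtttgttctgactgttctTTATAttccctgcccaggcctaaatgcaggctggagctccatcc
Aqp11: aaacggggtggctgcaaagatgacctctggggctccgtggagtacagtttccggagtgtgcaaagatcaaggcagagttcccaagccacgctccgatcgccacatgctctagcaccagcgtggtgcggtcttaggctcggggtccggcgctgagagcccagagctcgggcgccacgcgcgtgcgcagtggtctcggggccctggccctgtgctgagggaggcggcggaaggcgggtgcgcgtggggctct

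The Aqp2 window held ACGTCA at −212 to −207, AGATAA on the other strand at −202 to −197 and TATAA at −28 to −24, counted back from the base before the start as −1. The Aqp3 window held TATAA at −29 to −25, the Avpr2 window held it on the other strand at −44 to −40, and the Aqp11 window held none of the 4. No marked matches overlapped. Among the 32851 mouse promoter windows of the same length, 6.47% held the response element half-site, 9.99% the GATA motif, 22.8% the TATA motif and 18.6% the tonicity motif. These are matches of letters, not measured binding.

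On GRCm38, Aqp2 (ENSMUSG00000023013) lies on chromosome 15 (99579056 to 99584545, plus strand), and Aqp6 (ENSMUSG00000043144; 99601400 to 99605477, plus strand) lies in the same 26422-base stretch, with Aqp5 between them. Aqp7 (ENSMUSG00000028427; 41033074 to 41048139) and Aqp3 (ENSMUSG00000028435; 41092722 to 41098183) lie 44582 bases apart on chromosome 4, both on the minus strand. Aqp1 (ENSMUSG00000004655) lies on chromosome 6 (55336432 to 55348555, plus strand), Aqp11 (ENSMUSG00000042797) on chromosome 7 (97724006 to 97738289, minus strand), Aqp4 (ENSMUSG00000024411) on chromosome 18 and Avpr2 (ENSMUSG00000031390) on chromosome X (73892102 to 73895502, plus strand). These intervals are whole genes, and the values cover their exons. The annotation places Arhgap4 and L1cam on the opposite strand across the whole of Avpr2. The libraries were stranded, but the strand setting of the counting is not given in the sources used here, and without it reads of these genes could not be told apart. Arhgap4 ranged from 1.49 to 10.1 FPKM and L1cam from 5.35 to 28.1 FPKM, and both had higher means in CKD than in control mice, unlike Avpr2.

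Relative depth, read from the steps of low FPKM values, ran from 0.675 to 1 across the 12 libraries, while the absolute depth is unknown. Relative depth was 0.816 to 1 in control, 0.757 to 0.797 in CKD and 0.675 to 0.899 in CKD+Fe mice. Some of these estimates are uncertain: for CKD+Fe mouse 111710 the best estimate rested on 8 genes and the next best on 7. Of the 13148 genes tested, the median gene was higher by 0.50 log2 units in CKD than in control mice, so a member at 0 had fallen behind most genes. Calls among all genes were 80.4% higher and the rest lower as deposited, but 46.7% higher after median-of-ratios rescaling and 47.6% higher after quantile normalization. In all, 3 mice stood far from their groups: 042301 (control), 110310 (CKD) and 042702 (CKD+Fe) differed at least 2-fold from the rest of their group in 595, 805 and 442 genes, against 41 to 225 genes in the other 9 mice. Results that rest on them are given with and without them. Nothing in the sources used here says whether mice shared a cage, litter or day, so p-values measure the spread between these mice.

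In control kidneys Aqp1 and Aqp2 were the most abundant members, at means of 415 and 408 FPKM, followed by Aqp3 at 99.9, Aqp11 at 38.9, Aqp6 at 26.4, Avpr2 at 22.7, Aqp7 at 14.4 and Aqp4 at 7.44 FPKM. Every mouse had more Aqp2 than any mouse had Aqp3, and more Aqp3 than any had Aqp11. The ranges of all other neighbours in this order overlapped. In CKD mice Aqp11 dropped behind Aqp6 at 21.5 and Avpr2 at 12.2 FPKM, and its range overlapped that of Aqp7. The order in CKD+Fe mice was that of CKD mice, with Aqp1 at 266, Aqp2 at 197, Aqp3 at 83.4, Aqp6 at 30.4, Avpr2 at 18.3, Aqp11 at 11.6, Aqp7 at 8.71 and Aqp4 at 2.73 FPKM.

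**Figure D1:**
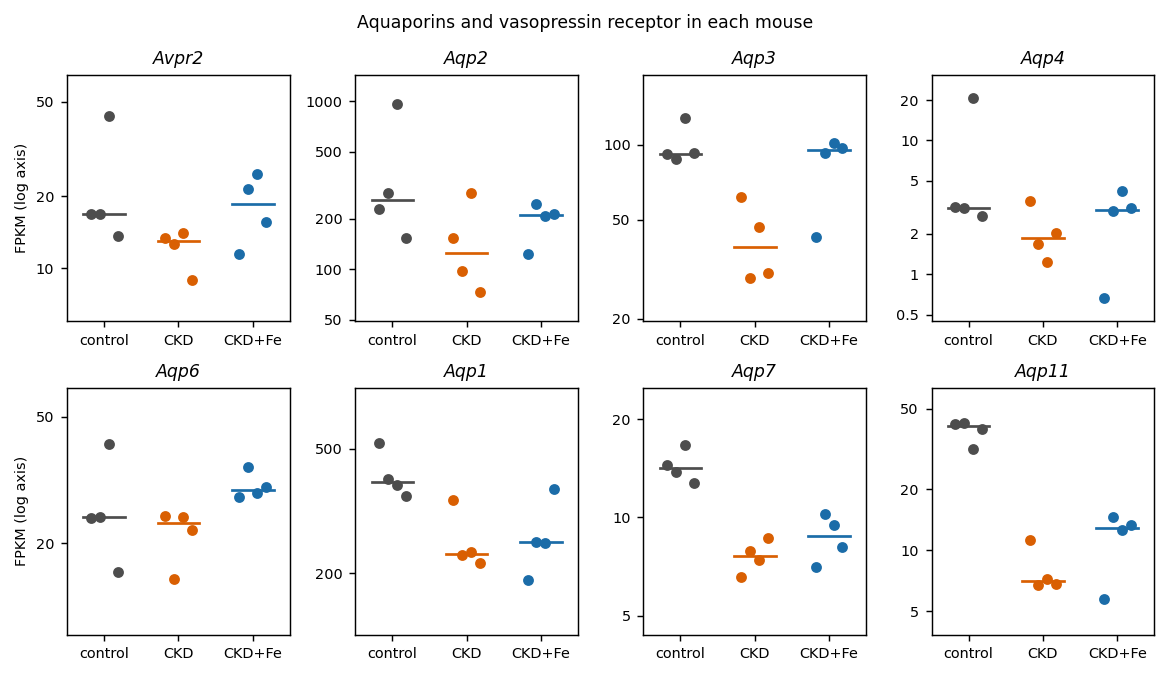
FPKM of each gene (log axis) in the 4 control, 4 CKD and 4 CKD+Fe mice, 1 point a mouse, with lines at the group medians. Aqp11 was at 31.5 to 42.3 FPKM in control and at 5.73 to 14.6 FPKM in the other mice, while the control point far above the rest in Aqp2, Aqp4 and Avpr2 is mouse 042301.

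CKD kidneys had less water channel mRNA than control kidneys. Aqp1, Aqp2, Aqp3, Aqp7 and Aqp11 were called lower at an adjusted p under 0.05 by limma, Aqp4, Aqp6 and Avpr2 did not pass, and none was called higher. Lower calls made up 13.3% of all genes tested and higher calls 54.6%. The median log2 fold change of the members was −0.93 against 0.50 for all genes. In 4 members, Aqp1, Aqp3, Aqp7 and Aqp11, the CKD range lay wholly below the control range, as in 10.4% of the genes tested. Each of these reached the smallest p that an exact two-sided permutation test of 4 against 4 mice allows, 0.0286. In whole kidney, fewer cells of a type and less RNA per cell cannot be told apart.

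After median-of-ratios rescaling all 8 members were called lower, with log2 fold changes from −2.75 (Aqp11) to −0.83 (Aqp6), and 31.0% of all genes tested were called lower. After quantile normalization 6 were, against 25.6% of all genes, Aqp3, Aqp4, Aqp6, Aqp7, Aqp11 and Avpr2, while Aqp1 (−0.33, adjusted p = 0.233) and Aqp2 (−0.92, adjusted p = 0.120) lost the call. Without the 3 mice that stood apart, 5 members were still called lower, against 15.7% of all genes. The members' median was then −0.73 against 0.54 for all genes.

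**Figure D2:**
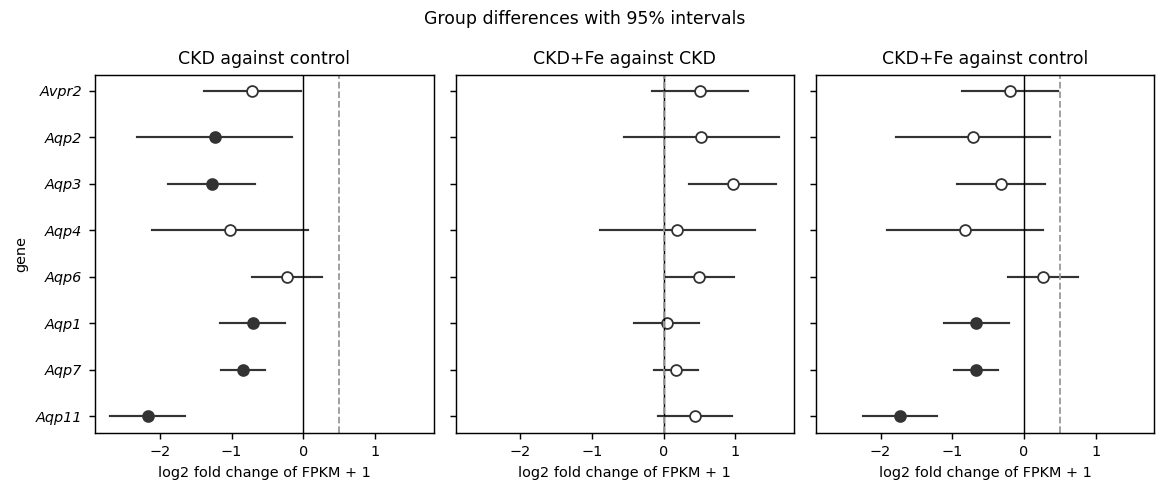
Log2 fold change of FPKM + 1 for each gene with its 95% interval in the 3 comparisons, from limma over all 12 mice, with filled points at an adjusted p under 0.05, a solid line at 0 and a dashed line at the median of all genes tested. The intervals of all but Aqp4 and Aqp6 lie below 0 in CKD against control, that of Avpr2 without passing the adjusted threshold, and no point is filled in CKD+Fe against CKD.

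Avpr2, which starts the vasopressin response, was at 16.9, 16.9, 43.3 and 13.7 FPKM in the control mice, 13.3, 12.6, 14.1 and 8.96 FPKM in the CKD mice and 11.5, 21.4, 24.8 and 15.6 FPKM in the CKD+Fe mice. Control mouse 042301 was far above the other control mice, and the lowest control mouse lay just inside the CKD range. The log2 fold change of CKD against control was −0.71 ± 0.31 (SE, n = 4 mice a group), and its adjusted p of 0.0577 by limma missed the threshold. Leaving out 042301 gave −0.36, which was not called, while array weights, which count deviating mice less, gave −0.55 with an adjusted p of 0.0345. Over all alternatives the adjusted p by limma ran from 0.00326 to 0.183.

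Aqp2, the vasopressin-regulated apical channel, varied widely between mice of a group. Its level was 229.6, 285, 964 and 153 FPKM in control, 153, 97.0, 284 and 73.3 FPKM in CKD and 124, 243, 206 and 215 FPKM in CKD+Fe mice. The 4 CKD+Fe mice lay within the range of the control mice apart from the lowest, and the CKD range overlapped both. The diet went with a log2 fold change of −1.24 ± 0.50 (SE, n = 4 mice a group; adjusted p = 0.0415 by limma, exact permutation p = 0.114).

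The call depended on single mice. Without control mouse 042301 the log2 fold change of Aqp2 was −0.70 and the adjusted p by limma 0.131. It was also lost without control mouse 012822 or without CKD mouse 021320, 022301 or 120102, with adjusted p between 0.0565 and 0.125, after quantile normalization (0.120), with no filter on low values (0.0740) and in a fit of only the 2 groups (0.0692). Slc14a2, the urea transporter of the inner medulla, was at 13.1, 3.9, 40.0 and 0.245 FPKM in the same order of control mice, so that mouse 042301 was highest and mouse 042310 lowest in both genes. Fxyd4, a regulator of the sodium pump and one of the principal cell markers, was at 105, 120.2, 622 and 63.1 FPKM in these mice. The summed level of the 4 principal cell markers was 217 to 254 FPKM in 3 control mice and 847 FPKM in 042301, and was 175 to 261 FPKM in CKD and 216 to 317 FPKM in CKD+Fe mice, with no marker at 0. The summed level of the 6 urothelial markers was 1.40 to 135 FPKM in control, 5.57 to 51.0 FPKM in CKD and 25.3 to 49.2 FPKM in CKD+Fe mice, and mouse 042301 was again the highest. The part of these differences in the result for Aqp2 was not tested.

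Aqp3, the basolateral channel for water and glycerol, fell in CKD mice and was the member with the largest difference under iron. Its level was at 92.0, 87.3, 128 and 92.6 FPKM in control, 61.7, 29.3, 47.0 and 30.4 FPKM in CKD and 42.7, 92.8, 101 and 97.0 FPKM in CKD+Fe mice. The CKD and control ranges were apart, and 3 of the 4 CKD+Fe mice were in the control range, with mouse 042702 at the CKD level. The log2 fold change of CKD against control was −1.28 ± 0.28 (SE, n = 4 mice a group; adjusted p = 0.00139 by limma). It kept its call under all 20 alternatives, with a range of −1.89 to −1.13.

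Aqp4, the second basolateral channel of the principal cell, was low in whole kidney. It was at 3.16, 3.14, 20.8 and 2.72 FPKM in control, 3.55, 1.68, 1.24 and 2.03 FPKM in CKD and 0.665, 2.99, 4.17 and 3.10 FPKM in CKD+Fe mice. Mouse 042301 was far above the other control mice, and the other 3 control mice lay inside the CKD range. CKD against control gave a log2 fold change of −1.02 ± 0.50 (SE, adjusted p = 0.0873 by limma), and −0.41 without mouse 042301.

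Aqp6, the channel of intercalated cell vesicles, was at 24, 24.1, 41.1 and 16.2 FPKM in control, 24.3, 15.4, 24.1 and 22.0 FPKM in CKD and 28, 34.7, 28.8 and 30.1 FPKM in CKD+Fe mice. The control and CKD mice overlapped, while the 4 CKD+Fe mice lay above every CKD mouse. CKD against control gave a log2 fold change of −0.23 with a 95% interval of −0.72 to 0.26. As a share of the summed FPKM of the 7 aquaporins, Aqp6 was 2.60% ± 0.17 (SD, n = 4) in control mice, 4.53% ± 1.06 in the CKD and 5.28% ± 1.27 in the CKD+Fe group, and its range in control mice, 2.41% to 2.82%, lay below that of both other groups.

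Aqp1, the constitutive channel of the proximal tubule and thin descending limb, fell 1.63-fold in CKD. It was at 522, 400.0, 383 and 354 FPKM in control, 344, 228, 234 and 216 FPKM in CKD and 191, 251, 250.1 and 371 FPKM in CKD+Fe mice. The highest CKD mouse was below the lowest control mouse, but mouse 021320 came close to it, and the CKD+Fe mice reached into the control range. The log2 fold change of CKD against control was −0.71 ± 0.21 (SE, adjusted p = 0.00892 by limma).

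Aqp7, the proximal straight tubule channel for water and glycerol, was at 14.5, 13.7, 16.6 and 12.7 FPKM in control, 6.55, 7.87, 7.38 and 8.62 FPKM in CKD and 7.03, 10.2, 9.49 and 8.10 FPKM in CKD+Fe mice. Both CKD and CKD+Fe mice were below every control mouse. The log2 fold change of CKD against control was −0.84 ± 0.14 (SE, adjusted p = 0.000179 by limma), the smallest error among the members, and the call held under all 20 alternatives.

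Aqp11 fell most. It was at 42.0, 42.3, 31.5 and 39.9 FPKM in control, 11.2, 6.74, 7.25 and 6.84 FPKM in CKD and 5.73, 14.6, 12.6 and 13.3 FPKM in CKD+Fe mice. Every CKD and CKD+Fe mouse was far below the lowest control mouse. The log2 fold change of CKD against control was −2.17 ± 0.24 (SE), a 4.49-fold fall on the FPKM + 1 scale, with an adjusted p of 6.39e-06 by limma. It was called under all 20 alternatives, between −2.75 and −2.10.

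In CKD+Fe against CKD, none of the 8 members was called, and the same comparison called 1 gene higher (0.00761% of those tested) and 0 lower (0%) among all genes. At an unadjusted p under 0.05, limma had 790 genes in this comparison. All 8 members had positive log2 fold changes, with a median log2 fold change of 0.47, and the median over all genes was −0.00050. The directions are not independent of one another, since the members share the same mice, and those of Aqp1 and Aqp4 turned negative when some mice were left out. Aqp3 differed most, by 0.96 ± 0.28 log2 units (SE, n = 4 mice a group; p = 0.00468, adjusted p = 0.469 by limma, exact permutation p = 0.0857). For Aqp6 the difference was 0.50 ± 0.23 (SE, adjusted p = 0.824 by limma). Aqp3 and Aqp6 had an unadjusted p under 0.05, as did 3.28% of the genes tested in the higher direction. Aqp6 was the one member whose groups did not overlap in this comparison, as in 1.35% of the genes tested, with an exact permutation p of 0.0286.

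The intervals of the other members included both 0 and sizeable differences. For Aqp2 the 95% interval ran from −0.55 to 1.60 around 0.52, for Avpr2 from −0.16 to 1.18 around 0.51, for Aqp11 from −0.08 to 0.96 around 0.44, for Aqp4 from −0.89 to 1.28 around 0.19, for Aqp7 from −0.14 to 0.47 around 0.17 and for Aqp1 from −0.41 to 0.49 around 0.04. The call of Aqp3 depended on the mice that stood apart. With array weights its log2 fold change was 1.19 (adjusted p = 0.0315 by limma), and without mice 042301, 110310 and 042702 it was 1.33 (adjusted p = 0.0409). Without mouse 042702 alone it was 1.25 and not called, and over all alternatives the adjusted p ran from 0.0315 to 0.9997.

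CKD+Fe mice still had lower Aqp1, Aqp7 and Aqp11 than control mice, and the other 5 members did not pass. Lower calls covered 11% of the genes tested in this comparison and higher calls 54.4%, and the median of all genes was again 0.50. The log2 fold changes were −1.73 ± 0.24 (SE) for Aqp11 (adjusted p = 5.14e-05 by limma), −0.67 ± 0.14 for Aqp7 (adjusted p = 0.00109) and −0.67 ± 0.21 for Aqp1 (adjusted p = 0.0132). Aqp7 and Aqp11 were below every control mouse in all CKD+Fe mice, as in 9.82% of the genes tested. This comparison and that of CKD with control use the same 4 control mice.

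The collecting duct members stood at −0.71 for Aqp2, −0.32 for Aqp3, −0.83 for Aqp4 and −0.20 for Avpr2, and Aqp6 at 0.27, all on the log2 scale and none called. Aqp1 lost its call after quantile normalization (−0.40, adjusted p = 0.162 by limma). The Aqp6 value turned to −0.32 after median-of-ratios rescaling, while without mouse 042301 it was 0.50 with an adjusted p of 0.0276. After that rescaling Aqp2, Aqp3 and Aqp4 were called lower too, as were 29.3% of all genes tested. Over all alternatives the values reached up to 0.03 for Aqp2, 0.10 for Aqp3, 0.13 for Aqp4 and 0.34 for Avpr2. Without the 3 mice that stood apart the median of the members was 0.07. In that setting 1 member was called higher and 3 lower, against 57.8% and 12.7% of all genes tested.

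Each member was also set against marker genes of its cell type in the same mouse, as the log2 level of the member minus the mean log2 level of the markers, which depends little on the scaling between mice. Aqp3 stood 1.09 ± 0.22 log2 units (SD, n = 4) above the principal cell markers Fxyd4, Hsd11b2, Scnn1b and Scnn1g in control mice and at −0.03 ± 0.37 in CKD mice, without overlap (exact permutation p = 0.0286). Fxyd4 itself varied with the mice (log2 fold change −1.08, adjusted p = 0.0822), while Scnn1b was called higher in CKD (0.59, adjusted p = 0.006, limma) and lost that call under both other scalings.

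The other principal cell members were lower relative to these markers too, though their groups overlapped. The difference was −1.07 for Aqp2, −0.54 for Avpr2 (exact permutation p = 0.0571 for both) and −0.85 for Aqp4 (exact permutation p = 0.0857). Without the most abundant of the markers, the difference for Avpr2 was −0.848 (exact permutation p = 0.0571). In CKD+Fe mice Aqp2 stood at 1.87 ± 0.10 and Aqp4 at −3.93 ± 0.44 against the markers, below every control mouse, where the means were 2.75 ± 0.71 and −2.94 ± 0.78 (SD, n = 4). Both differences gave an exact permutation p of 0.0286, and Aqp2 varied less relative to the markers in CKD+Fe mice than in either other group. The groups were barely apart: the highest CKD+Fe and lowest control mice were at 1.94 and 1.98 for Aqp2, and −3.44 and −3.39 for Aqp4. The differences of −0.88 and −0.99 were −0.56 and −0.61 without control mouse 042301. Over all alternatives the exact permutation p reached 0.114 for Aqp2 and 0.1 for Aqp4. Aqp3 relative to the markers was 0.60 ± 0.29 in CKD+Fe mice, 0.63 above CKD mice with overlap (exact permutation p = 0.0571).

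**Figure D3:**
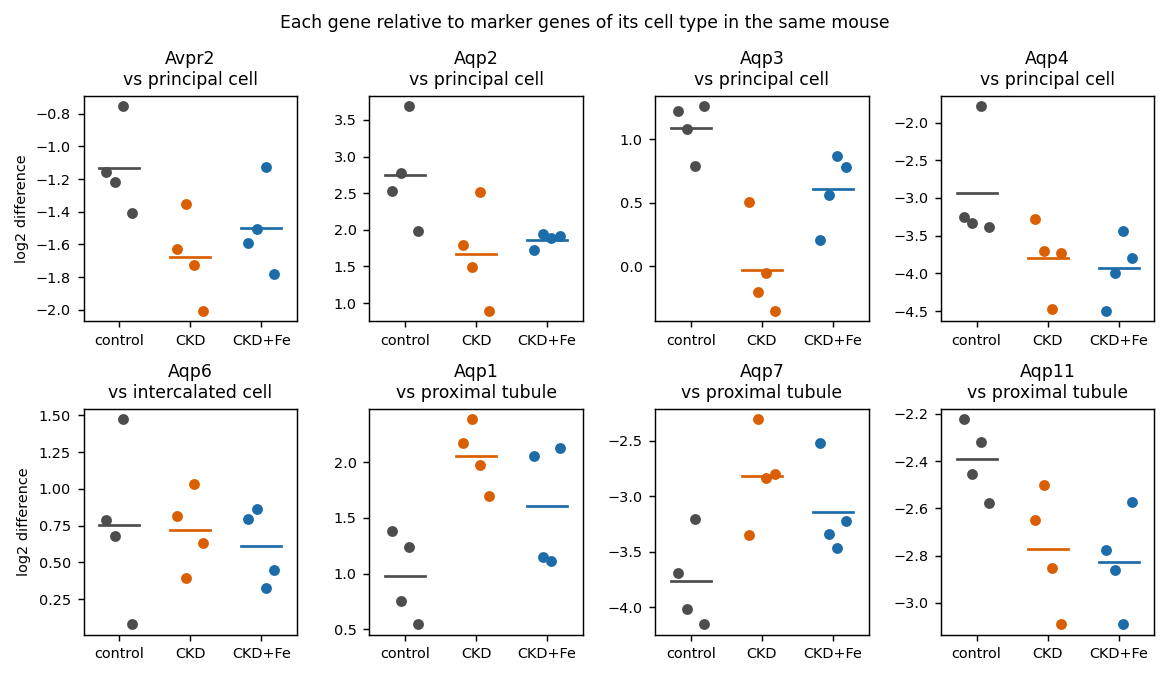
Log2(FPKM + 1) of each gene minus the mean of the marker genes of its cell type in the same mouse, 1 point a mouse, with lines at the group means. Aqp3 was between 0.79 and 1.26 in control and between −0.35 and 0.50 in CKD mice, while Aqp1 was between 0.54 and 1.38 in control and between 1.70 and 2.39 in CKD mice.

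The proximal tubule members moved differently against their markers. The 9 proximal tubule markers with values in all mice had a summed level of 3605 to 5332 FPKM in control, 728 to 1377 FPKM in CKD and 778 to 1880.5 FPKM in CKD+Fe mice, and 9 of the 10 markers tested were called lower in CKD. Aqp1 fell less than they did and stood 2.06 ± 0.29 log2 units above them in CKD against 0.98 ± 0.40 in control mice (SD, n = 4), a difference of 1.08 without overlap (exact permutation p = 0.0286). Aqp7 showed a difference of 0.95 with overlap (exact permutation p = 0.0571). Aqp11 was 0.38 lower relative to the markers in CKD, also with overlap (exact permutation p = 0.0571), and −0.05 against the median of the markers in place of their mean. Aqp1 is also expressed in the thin descending limb and in endothelium. The 6 endothelial markers summed to 161 to 376 FPKM in control, 118 to 213 FPKM in CKD and 125 to 225 FPKM in CKD+Fe mice, and their part in the level of Aqp1 was not tested.

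Aqp6 relative to the 8 intercalated cell markers was 0.75 ± 0.57 in control mice, against 0.72 ± 0.27 in the CKD and 0.61 ± 0.26 in the CKD+Fe group (SD, n = 4), with differences under 0.15 log2 units and overlapping groups in all 3 comparisons. The summed level of these markers was 133 to 152 FPKM in control, 121 to 168 FPKM in CKD and 188 to 251 FPKM in CKD+Fe mice, and each CKD+Fe mouse was above all mice of the other groups. None of the 8 was called in CKD+Fe against CKD, while 6 had an unadjusted p under 0.05. Against control, CKD mice had lower Slc26a4 (pendrin, log2 fold change −1.33), Slc4a1 (the anion exchanger AE1, −1.21) and Insrr (−0.72) and higher Atp6v0d2 (1.22) and Atp6v1b1 (0.50), both subunits of the proton pump. After either other scaling 1 of the 8 was called higher and 5 lower. In all, 4 of the 24 comparisons of members with markers did not overlap, and none was adjusted for their number. No share over all genes is given for this count, so it cannot be read as particular to the members.

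**Figure D4:**
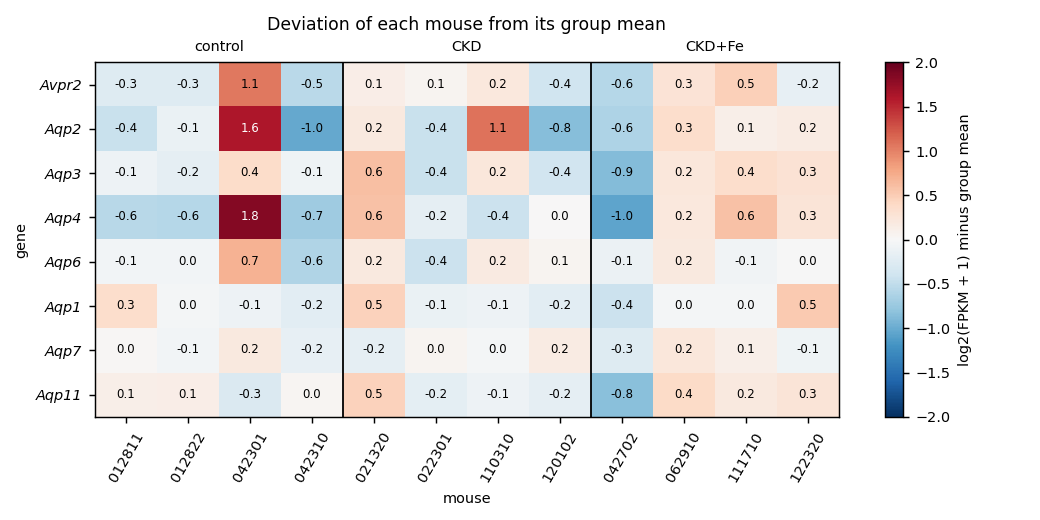
Log2(FPKM + 1) of each gene in each mouse minus the mean of its group, with columns for the 12 mice in their 3 groups and colour from −2 (blue) to 2 (red). Mouse 042301 deviated by 1.62 in Aqp2, 1.83 in Aqp4 and 1.05 in Avpr2 but by −0.29 in Aqp11, and mouse 042702 was below its group in all 8 genes.

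Within groups, several members deviated in the same mice, among them members of the collecting duct and of the proximal tubule. Control mouse 042301 exceeded its group mean in Aqp2, Aqp4, Avpr2, Aqp6 (0.70), Aqp3 (0.37) and Aqp7 (0.20), all on the log2 scale. It was below the mean in Aqp1 (−0.10) and Aqp11 (−0.29). CKD mouse 110310 was 1.09 above its group in Aqp2, 0.43 below it in Aqp4 and closer to it in every other member. CKD+Fe mouse 042702 was below its group by 1.05 in Aqp4, 0.87 in Aqp3, 0.83 in Aqp11 and 0.62 in Aqp2. CKD mouse 021320 had the highest Aqp1, Aqp3, Aqp4, Aqp6 and Aqp11 of its group and the lowest Aqp7.

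The make-up of the aquaporin pool differed between groups mainly in its minor members. The summed FPKM of the 7 aquaporins was 672 to 1584 in control, 359 to 605 in CKD and 399 to 737 in CKD+Fe mice. Aqp1 and Aqp2 made up 45.0% ± 14.4 and 35.4% ± 17.5 of it in control mice, 53.7% ± 10.1 and 29.4% ± 11.9 in CKD mice and 44.4% ± 5.55 and 32.8% ± 3.59 in CKD+Fe mice (SD, n = 4). The share of Aqp11 was 4.35% ± 1.68 in control mice against 1.68% ± 0.33 in the CKD and 1.89% ± 0.35 in the CKD+Fe group. Aqp3 made up 8.51% ± 1.21 in CKD and 13.7% ± 2.42 in CKD+Fe mice, and the shares of the CKD+Fe group lay wholly above those of the CKD group. These shares were not tested.

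**Figure D5:**
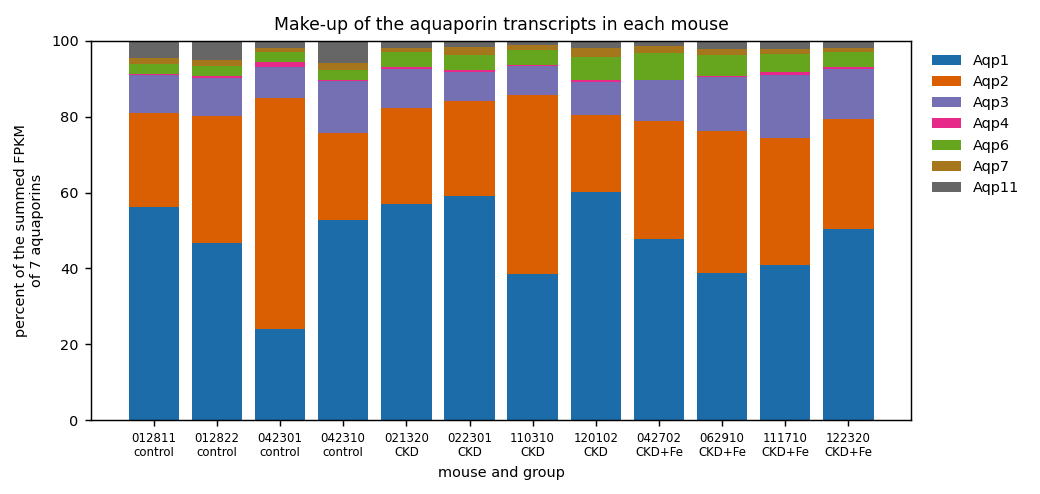
Share of each aquaporin in the summed FPKM of the 7 aquaporins, in percent, as 1 stacked bar a mouse. Aqp2 made up 60.8% in control mouse 042301, where Aqp1 made up 24.1%, the lowest share of Aqp1 in any control mouse.

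Other aquaporins were low. Aqp8, the only one that passed the filter, was at 0.141 to 2.56 FPKM in control, 0.277 to 1.38 FPKM in CKD and 1.02 to 2.41 FPKM in CKD+Fe mice, and was called in no comparison. Aqp5, which lies between Aqp2 and Aqp6, exceeded 1 FPKM in 1 mouse, control mouse 042301 at 1.59 FPKM. Aqp9, a channel for water, glycerol and urea, was at 0 to 0.0716 FPKM in control, 0.312 to 0.560 FPKM in CKD and 0.152 to 0.565 FPKM in CKD+Fe mice, above every control mouse but below the filter. Mip and Aqp12 did not exceed 0.0414 FPKM in any mouse.

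As deposited, genes of vasopressin and cAMP signaling did not fall with the members as a set, though single genes had negative values. Of 16 tested genes of the vasopressin receptors and cAMP signaling, 11 were called higher and 0 lower in CKD, against 54.6% of all genes higher, and their median log2 fold change was 0.63 against 0.50 for all genes. Gnas (−0.50, adjusted p = 0.0823 by limma) and Prkaca (−0.19, adjusted p = 0.343) had negative values and were not called. The largest differences were in Adcy3 (1.12), the cAMP response factor Creb1 (1.07) and the phosphodiesterase Pde4b (1.0), and Adcy6, an adenylyl cyclase of the collecting duct, was close to them at 1.0 (adjusted p = 1.29e-05 by limma). After rescaling by median of ratios 6 of the 16 were called higher and 2 lower, with a median of 0.05, and after quantile normalization 2 were called higher. Adcy6 was called higher under each scaling, at 0.41 and 0.68. Avpr1a, the vasopressin V1a receptor, was called higher as deposited (0.46, adjusted p = 0.0211) but not after rescaling (0.02), and stood at −0.37 after quantile normalization.

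Of 19 tested genes of AQP2 vesicle traffic, 12 were called higher and 2 lower in CKD, against 54.6% and 13.3% of all genes, with a median log2 fold change of 0.44 against 0.50 for all genes. Those called higher included the vesicle protein Vamp2 (1.31) and the membrane linker ezrin, Ezr (0.87), and Vamp8 (−0.48) and Rab5c (−0.45) were the 2 called lower. After median-of-ratios rescaling 2 were called higher and 3 lower, against 27.2% and 31.0% of all genes, and after quantile normalization 9 higher and 0 lower, against 23.3% and 25.6%.

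Of 11 transcription factors of the collecting duct, 8 were called higher and 1 lower in CKD, against 54.6% and 13.3% of all genes, with a median log2 fold change of 0.67 against 0.50 for all genes. The ETS factors Elf3 (2.02) and Ehf (1.69) and the epithelial factor Grhl2 (1.43) rose most, and 4 of the 11 were called higher after median-of-ratios rescaling and 6 after quantile normalization, where 2 were called lower, against 27.2% and 23.3% of all genes called higher. Emx1 fell by 1.16 on the log2 scale and was called lower under each scaling. The collecting duct factors Gata2 (0.03) and Elf5 (−0.11) did not pass.

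Of 9 genes of urea transport and tonicity, 3 were called higher and 0 lower in CKD, against 54.6% and 13.3% of all genes. Nfat5, the factor that activates genes under hypertonic stress, was at 3.52 to 6.46 FPKM in control and 7.83 to 29.1 FPKM in CKD mice, with a log2 fold change of 1.92 (adjusted p = 0.000272 by limma) that stayed called at 1.37 and 1.34 under the other scalings. The taurine transporter Slc6a6 (0.82) and the heat shock gene Hspa1b (0.93) were the other two, and both lost the call after median-of-ratios rescaling. Akr1b3, aldose reductase and a target of NFAT5, stood at −0.67 and did not pass, but was called lower after median-of-ratios rescaling (−1.27, adjusted p = 0.0142 by limma), the 1 gene of the list called lower there. Without the 3 mice that stood apart, 7 of the 9 were called higher, against 59.4% of all genes. In CKD+Fe against control, the phosphodiesterase Pde4a (1.21), the collecting duct factor Tfcp2l1 (1.34), the membrane fusion protein Stx4a (0.85) and Pnpla6 (0.43) were also among the largest called rises of these 4 lists. In CKD+Fe against CKD no gene of these 4 lists was called.

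Markers of the other cell types were measured beside the members. The 5 macrophage markers were all called higher in CKD, from a summed 77.0 to 131 FPKM in control to 615 to 1335 FPKM in CKD and 683 to 1384 FPKM in CKD+Fe mice. The thick ascending limb markers summed to 1532 to 2509 FPKM in control and 2228 to 3360 FPKM in CKD mice, with 1 of 5 called in each direction. The distal convoluted tubule markers summed to 177 to 318 FPKM in control and 222 to 366 FPKM in CKD mice, also with 1 of 3 called in each direction. As deposited, none of the 6 urothelial markers and 1 of the 6 endothelial markers (lower) was called. After median-of-ratios rescaling 5 endothelial markers were called lower and 0 higher, against 31.0% and 27.2% of all genes. After quantile normalization it was 3 lower and 0 higher, against 25.6% and 23.3%. Erythroid markers summed to 4.94 to 114 FPKM over the mice with none called in CKD against control, and adipocyte markers to 0.322 to 19.2 FPKM. The part of these differences in the values of the members was not tested.

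The genes whose pattern over the 12 mice was closest to a member were found for the 5 members with an SD of at least 0.5 log2 units over the mice, by the root mean square (RMS) difference of centred log2 values. Aqp2 was followed most closely by Fxyd4 (RMS difference 0.34), Cox7a1 (0.40) and Ppp1r1a (0.45). Aqp4 was followed by Ptger1, a prostaglandin E receptor (0.40), Fxyd4 (0.43) and Sycn (0.45). In mouse 042301 Ptger1 was at 25.8 FPKM against 3.59 to 4.15 FPKM in the other control mice. Sycn was low, at 0 to 6.86 FPKM over the 12 mice. Avpr2 was followed by Tmem45b (0.22), Ndufa5 (0.23) and Tpd52l1 (0.23).

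Aqp3 was closest to Serpina1d (RMS difference 0.28), Klk1, the tissue kallikrein of the connecting tubule (0.30), and Cyp2f2 (0.31). Cyp2f2 was low, at 0.059 to 1.73 FPKM over the 12 mice, where the FPKM + 1 scale understates fold changes. Klk1 was at 1084 to 1409 FPKM in control, 567 to 824 FPKM in CKD and 801 to 1134 FPKM in CKD+Fe mice. Aqp11 was closest to Acadm, the medium-chain acyl-CoA dehydrogenase of fatty acid oxidation (0.13), Abhd3 (0.14) and Adhfe1 (0.15), and these were the closest matches of any member. Acadm was at 566 to 768 FPKM in control, 118 to 185 FPKM in CKD and 126 to 232 FPKM in CKD+Fe mice. The SD of Aqp11 over the 12 mice was 1.04, against 0.94 for Aqp2, 0.90 for Aqp4, 0.71 for Aqp3 and 0.56 for Avpr2.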

How the data were processed

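RNA of whole kidneys of 12 mice, 4 a group, was sequenced as stranded mRNA libraries (single-end reads). Per the labels' processing notes, the authors used bcl2fastq 2.19, STAR 2.5.2 and Cufflinks 2.1.1 with GRCm38, and they deposited 1 table of FPKM for 22053 genes. Absolute depth cannot be read from it. In 17 genes, 30 values with a failed estimate were treated as missing, and limma fitted such genes on the remaining mice. The count-based test of the study's methods needs counts, so limma 3.58.1 in R 4.3.3 was run on log2(FPKM + 1) instead, in 1 fit over all 12 mice with a variance trend, for 13148 genes that reached 1 FPKM in 4 or more mice. Benjamini-Hochberg adjustment covered all of them, and the threshold was 0.05. Fold changes on this scale understate those of low genes. Single values were tested with exact two-sided permutation tests over all 70 arrangements. On simulated data for CKD against control with 13132 genes, limma recovered 109 of 111 genes changed 4-fold and 59 of 89 changed 2-fold.

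The members and gene lists were chosen with earlier results of these data known. Named were all 8 members, all other aquaporins, the marker genes, in each list and comparison the 3 largest called changes in each direction, and, for members with an SD of at least 0.5, the 3 genes closest over the 12 mice. Adcy6, Avpr1a, Gnas, Prkaca, Slc14a2, Akr1b3, Gata2, Elf5, Arhgap4 and L1cam fall outside this rule and were chosen after their values were seen. Of the listed genes, Creb5 was not matched. Gene positions were taken from the table (GRCm38, written 1-based), strand and overlaps from GENCODE M21, and promoters from RefSeq, where 7 of the 8 members were used. Alternatives were pseudocounts, filters, 2 scalings, array weights, no variance trend, fits of 2 groups, other thresholds, and leaving out each mouse or 3 mice. Not every gene that the rule picks is reported here: 1 of the vesicle list is left out, and markers of other cell types are given mainly as lists.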

Additional observations from a re-analysis of the deposited data

Results flagged for a closer look

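In groups of 4 mice, a value was picked out where its gap to the nearest other mouse, divided by the range of the group, passed Dixon's 95% critical value for 4 samples. This held in 6 of the 24 groups of the 8 members. The rate by chance, about 1 in 20, holds for independent groups of normally distributed values. The 8 genes were measured in the same mice, and all 6 values came from mice 042301, 021320 and 042702. Of these, 042301 and 042702 had already stood far from their groups. No share over all genes is given, so the 6 cannot be compared with that rate or read as particular to the members.

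Control mouse 042301 was picked out for Aqp4 at 20.8 FPKM and for Aqp3 at 128 FPKM, above the other control mice in both. CKD mouse 021320 was picked out for Aqp1 at 344 FPKM and for Aqp11 at 11.2 FPKM, above the other CKD mice in both. CKD+Fe mouse 042702 was picked out for Aqp3 at 42.7 FPKM and for Aqp11 at 5.73 FPKM, below the other CKD+Fe mice in both. What set these mice apart was not tested.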

How the results depend on the processing

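The calls of Aqp3, Aqp7 and Aqp11 in CKD against control, and of Aqp7 and Aqp11 in CKD+Fe against control, held under all 20 alternatives, and no called value changed sign. The number of members called in CKD against control rose from 5 to 8 after median-of-ratios rescaling and at an adjusted p under 0.5. Of the 13148 genes tested, 3571 were called higher and 4075 lower after rescaling, and 9083 and 2681 at 0.5. In CKD+Fe against CKD the number of members rose from 0 to 1 with array weights, without the 3 mice that stood apart and at an adjusted p under 0.5. Among all genes, 91, 51 and 92 were called higher and 69, 33 and 72 lower in these settings. In CKD+Fe against control the number of members rose from 3 to 6 after median-of-ratios rescaling and to 7 at an adjusted p under 0.5. Among all genes, 3427 were called higher and 3851 lower after rescaling, and 9224 and 2388 at 0.5. The number of member comparisons without overlap between groups, 7 of 24, was 12 after median-of-ratios rescaling and 15 without the 3 mice, where fewer mice make overlap less likely. No share over all genes is given for these settings, so the counts 12 and 15 cannot be read as particular to the members. Relative to cell markers it was 4 of 24, but 7 with the median over the markers and 10 without the 3 mice. It was 4 to 8 when each mouse was left out in turn (7 without control mouse 042301 or CKD mouse 021320, 8 without control mouse 042310). The counts relative to markers have no share over all genes beside them either, so they cannot be read as particular to the members. Aqp1 lost both its calls after quantile normalization and the one in CKD+Fe against control at an adjusted p under 0.01, and Aqp2 its call in 9 of 20 alternatives. The causes were not tested. Depth and counts are not known from FPKM, which limits Aqp4 most. Aqp4 had no value under a mean filter of 5 FPKM. No paired analysis was possible because the groups share no replicate numbers.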
